A study of Rattus norvegicus with 24 samples.

Results

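Leukocyte adhesion molecules are the proteins by which vessel walls hold white blood cells and let them pass. They were followed here through the 6 genes Vcam1, Icam1, Icam2, Pecam1, Alcam and Cd99. All probes whose only gene symbol in the platform annotation is one of these were taken, which gave 8 of the 31099 probes on the array, for 6 of 14218 genes. Vcam1 (1368474_at), Icam1 (1387202_at), Pecam1 (1371545_at) and Alcam (1370043_at) had 1 probe each. Icam2 (1389235_at and 1390310_at) and Cd99 (1371918_at and 1381867_at) had 2 each.

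RNA of microvessels isolated from rat brain cortex was measured on 24 arrays, 8 in each of 3 groups. Both groups with acute liver failure first had a portocaval anastomosis (PCA), which leads portal blood past the liver. After 24 h the hepatic artery was tied (HAL), which leaves an ischaemic liver in the animal, or the whole liver was removed (HEP). Sham rats went through 2 steps of feigned surgery. HAL and HEP thus share the shunt, and differ in whether a liver without arterial blood stays in the body. The animals were killed by decapitation 8 to 12 h after the last operation. Strain and age are not given in the labels used here, nor is it said that each array is 1 rat. The p-values therefore speak only of the scatter among arrays, part of which may be technical. In such bulk samples fewer cells of a type and less RNA per cell cannot be told apart.

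White cells leave the blood in steps. They are slowed by selectins, arrested when their integrins bind immunoglobulin-type receptors on the endothelium, and pass between endothelial cells through molecules held at the junctions. In resting brain vessels this traffic is low, and inflammatory cytokines acting through NF-κB are the classical inducers of the arrest receptors Vcam1 and Icam1. Icam2 and Pecam1 are carried by resting endothelium too, while Alcam and Cd99 are found on many cell types besides.

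Vcam1 is the member whose promoter is the textbook example of an NF-κB responsive start, and it is shown for that reason. The 250 bases before its start (RefSeq, GRCr8, minus strand, chr2:206742784-206743033) are given below with the match to the NF-κB consensus in capitals.
Vcam1: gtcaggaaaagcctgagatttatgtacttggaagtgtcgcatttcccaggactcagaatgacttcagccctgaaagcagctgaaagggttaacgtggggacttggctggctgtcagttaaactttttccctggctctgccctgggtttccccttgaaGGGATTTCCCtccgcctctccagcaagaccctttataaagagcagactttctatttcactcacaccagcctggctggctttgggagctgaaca
The match begins 93 bases before the start. Of 33469 promoter windows of this length 6.33% held the consensus on either strand. Windows were found for 4 of the 6 members, of which those of Icam1, Alcam and Cd99 overlap the annotated gene itself and are not shown. Vcam1 and Alcam held a match, that of Alcam in such an overlapping window. A match is a description of letters, and no binding was measured here.

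In the values as provided the integer part of each log2 signal is missing and only its decimals are left, with zeros at either end lost. A signal below 10 leaves 9 digits and a signal from 10 on leaves 8, so the number of digits tells on which side of 10 a probe lay. Within a side only the decimals are known. The decimals of a probe were therefore laid out within 0.5 of their circular mean over all 24 arrays, blind to group, and cells shorter than full length were left out. A reading is such a laid-out decimal, and a difference between groups is known only up to whole units. A change of 1 on the log2 scale, which is 2-fold, leaves the decimals where they were and cannot be seen. Everything below on differences concerns the part of a change that is left after whole units are removed.

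Every member probe fell either in the class at 10 or above or in the class below 10. Short cells left the side open on single arrays. Vcam1, the receptor for the integrin of Itga4 and Itgb1, had 0 cells of 9 digits on 24 arrays, which places it at 10 or above throughout. The same held for Pecam1, which joins endothelial cells at their borders and takes part in diapedesis, and for Alcam, a ligand of Cd6 on T cells. It held as well for the probe 1389235_at of Icam2, a constitutive ligand of leukocyte integrins, and for the probe 1371918_at of Cd99, which acts late in diapedesis. In all 5 of the 8 probes, or 62.5%, lay at 10 or above, against 6.22% of all probes. A single array below 10 whose outer digit was 0 would go unnoticed in such a count. These classes describe probes, which differ in affinity, and order no gene above another.

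Icam1, the inducible ligand of the integrins that hold Itgb2, lay below 10. Its cells had 9 digits on all 8 HEP arrays and on 7 arrays each of Sham and HAL. The 2 remaining cells are short, and a lost zero or a signal of 10 or above could leave them so. The second probe of Icam2, 1390310_at, had 9 digits on 7 arrays each of Sham and HEP and on 5 of HAL. The second probe of Cd99, 1381867_at, had 9 digits on 8 arrays each of Sham and HEP and on 6 of HAL. The short cells of these second probes, too, could come from a lost zero or from a signal of 10 or above, and they were not read. The probes of Icam2 and of Cd99 thus lay on both sides of 10 within 1 gene. No member probe lay in the class near 10, where a level is inferred from the number of digits, so no group could be seen to cross that level.

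**Figure D1:**
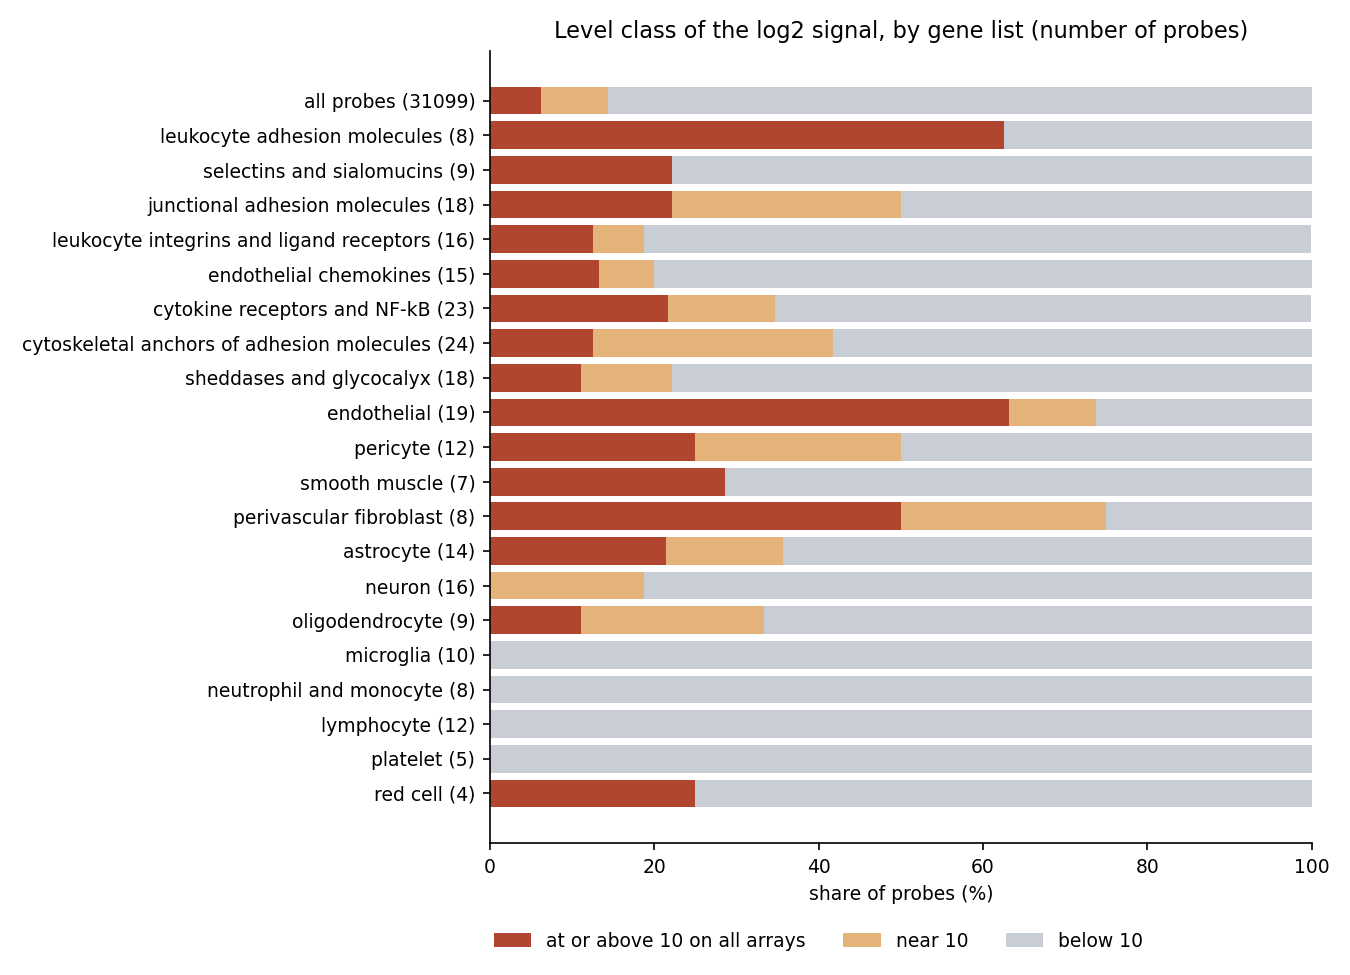
Share of probes (%) at or above 10, near 10 and below 10 on the log2 scale over the 24 arrays, for all probes and for each gene list, with the number of probes in brackets. The leukocyte adhesion molecules have 62.5% of probes at or above 10 and the endothelial markers 63.2%, against 6.22% of all probes, while no probe of the microglia, neutrophil and monocyte, lymphocyte or platelet lists is in that class.

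The same classes were read for lists of cell type markers. Of the 11 endothelial markers with a probe 10 reached that class, among them Cldn5, Flt1, Tek and Ocln, which fits the tissue label. Perivascular fibroblast markers did so in 4 of 6 genes, pericyte markers in 3 of 8 and astrocyte markers in 3 of 7. Smooth muscle markers did so in 2 of 6 genes, oligodendrocyte markers in 1 of 5 (Mbp) and neuron markers in 0 of 8. The lists of leukocytes, microglia and platelets did not. Such a probe was found for 0 of 8 neutrophil and monocyte, 0 of 8 lymphocyte, 0 of 7 microglia and 0 of 5 platelet markers. The probes of these lists all lay below 10. Of 3 red cell markers Hbb lay at 10 or above. Probes below 10 can still carry signal, so leukocytes are not shown to be absent. The part of cell type makeup in the member values was not tested.

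How far the arrays of a probe agree decides what its decimals can tell. The resultant length measures this, being 1 when all decimals coincide and 0 when they spread evenly around the circle. Over all probes at 10 or above its median was 0.47, and over those below 10 it was 0.47 as well. Cd99 1381867_at, with 0.70, and Vcam1, with 0.56, stood above these medians. Icam2 1390310_at had 0.40 and Icam1 had 0.33. Alcam and Icam2 1389235_at had 0.25 each, Cd99 1371918_at had 0.19 and Pecam1 had 0.11, so their decimals went nearly all the way round. Only 3.98% of probes at 10 or above agreed less closely than Pecam1.

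**Figure D2:**
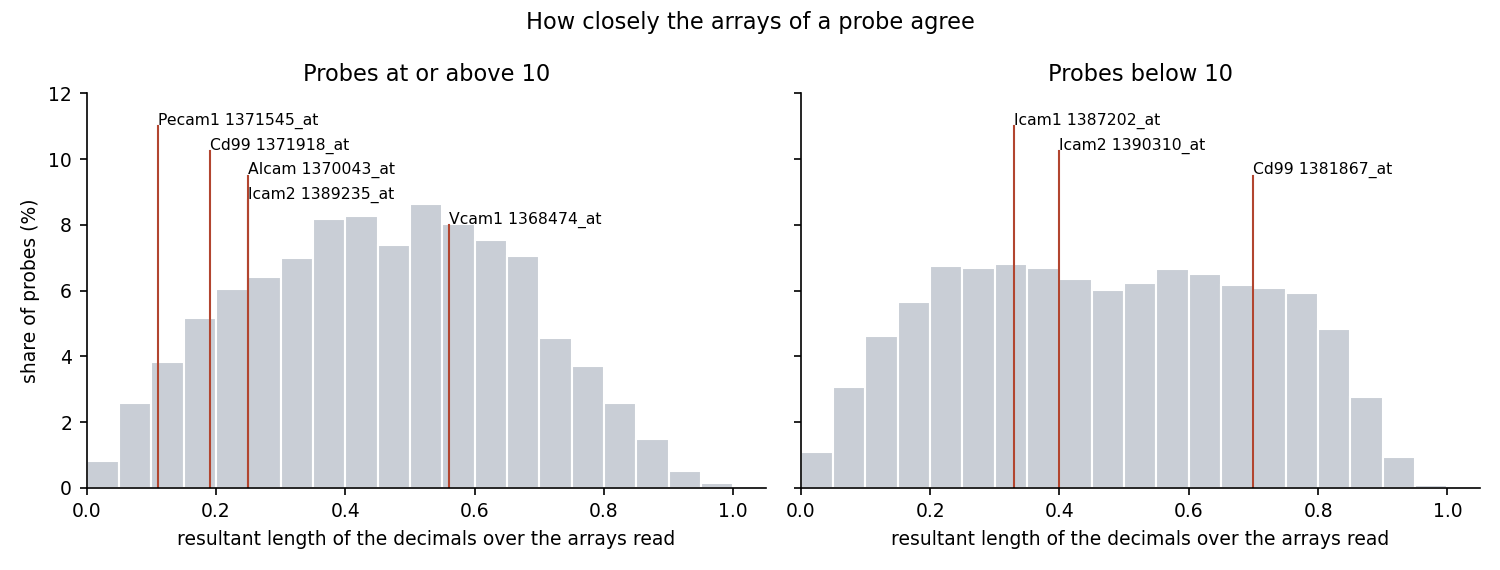
Share of probes (%) by the resultant length of their decimals over the arrays read, for probes at 10 or above (left) and below 10 (right), with the 8 member probes as red lines. Vcam1 (0.56) and Cd99 1381867_at (0.70) lie above the medians of 0.47, and Pecam1 (0.11) lies in the lower tail.

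As a check, the decimals were also laid out from the largest gap on the circle and around the circular mean of the Sham arrays. In 4 of the 8 probes all 3 differences between groups kept their sign in the 3 layouts. These were Vcam1, Icam1, Icam2 1390310_at and Cd99 1381867_at. In the other 4 at least 1 difference turned, so no direction is given for them. This sorting was made after the values were seen.

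Across the fit of all probes 0 of 8 member probes passed an adjusted p of 0.05 in HAL minus Sham in limma, where 0.523% of all 30194 probes tested were called (158, of which 58 were higher and 100 lower). In HEP minus Sham 0 of 8 passed in limma, against 0.219% of all probes (66). With single arrays left out these totals ran from 89 (without HAL array 6) to 157 in HAL minus Sham, and from 16 (without HEP array 6) to 281 (without HEP array 8) in HEP minus Sham, and the members had 0 each time. In HAL minus HEP 0 of 8 passed in limma, against 0% of all probes. By class, HAL minus Sham had 0.703% of probes called at 10 or above, 2.85% near 10 and 0.286% below 10, and HEP minus Sham had 0.325%, 1.44% and 0.0928%. With shares this small a count of 0 among 8 probes does not set the members apart. At an unadjusted p under 0.05 the members had 0, 0 and 1 probes in the 3 comparisons in limma, against 12.2%, 9.58% and 6.78% of all probes. Of 24 exact permutation tests, 2-sided, over the arrays read, 0 had a p under 0.05, and the smallest was 0.0733. The median difference of the members was 0.04 in HAL minus Sham, 0.01 in HEP minus Sham and 0.03 in HAL minus HEP, beside 0.01 over all probes in each.

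Vcam1 was read on 6 Sham arrays from 0.34 to 0.85 with a median of 0.58. On 6 HAL arrays it ran from 0.43 to 0.94 with a median of 0.78, and on 7 HEP arrays from 0.50 to 0.78 with a median of 0.65. The groups overlapped throughout, and all HEP readings lay within the range of Sham. The mean reading was 0.60 ± 0.21 in Sham (SD, n = 6), 0.74 ± 0.19 in HAL (SD, n = 6) and 0.66 ± 0.09 in HEP (SD, n = 7). The HEP arrays thus lay closest together, with a resultant length of 0.87 against 0.39 in Sham and 0.51 in HAL. This difference in spread was not tested.

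For Vcam1 the difference of HAL minus Sham was 0.14 with a 95% interval of -0.07 to 0.34 (adjusted p = 0.619 in limma, exact permutation p = 0.253), and 5 of 6 HAL readings lay above the Sham mean. HEP minus Sham was 0.06, with an interval of -0.14 to 0.25 (adjusted p = 0.918 in limma). With single arrays left out the difference in HAL ran from 0.09 (without Sham array 1) to 0.20 and that in HEP from 0.01 (without Sham array 1) to 0.11. The difference in HAL was 0.04 with cells 1 digit short read at the nearer zero. With such cells read, that in HEP became -0.04 or -0.06, depending on where the lost zero was put. HAL minus HEP was 0.08, with an interval of -0.12 to 0.28 (adjusted p = 0.925 in limma). Each interval spans 0, and none covers changes by whole units.

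Icam1 was read from 0.10 to 0.79 with a median of 0.59 on 7 Sham arrays. On 7 HAL arrays it lay between 0.27 and 0.83 with a median of 0.60. On 8 HEP arrays it lay between 0.29 and 0.91 with a median of 0.40. Of the HEP arrays 2 lay above the Sham mean of 0.57, and 7 of the 8 fell inside the Sham range.

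The mean of Icam1 was 0.57 ± 0.23 in Sham (SD, n = 7), 0.57 ± 0.22 in HAL (SD, n = 7) and 0.48 ± 0.22 in HEP (SD, n = 8). The difference of HAL minus Sham was -0.01 with an interval of -0.25 to 0.23 (adjusted p = 0.988 in limma), and it ran from -0.09 to 0.04 with single arrays left out. HEP minus Sham was -0.09, with an interval of -0.32 to 0.14 (adjusted p = 0.874 in limma). Around the Sham circular mean the same differences were -0.15 and -0.24. HAL minus HEP was 0.08, with an interval of -0.15 to 0.32 (adjusted p = 0.937 in limma).

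Cd99 was read best in its probe 1381867_at. Sham ran from 0.35 to 0.75 with a median of 0.68 on 8 arrays. HAL ran from 0.55 to 0.92 with a median of 0.84 on 6 arrays, and HEP from 0.55 to 0.95 with a median of 0.74 on 8. The upper ends of HAL and HEP lay above all Sham readings, on 4 of 6 and 3 of 8 arrays, while their lower ends lay inside the Sham range.

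The mean of this Cd99 probe was 0.65 ± 0.13 in Sham (SD, n = 8), 0.79 ± 0.15 in HAL (SD, n = 6) and 0.76 ± 0.12 in HEP (SD, n = 8). HAL minus Sham was 0.14 with an interval of -0.02 to 0.30 (adjusted p = 0.484 in limma, exact permutation p = 0.0733). HEP minus Sham was 0.11 with an interval of -0.04 to 0.26 (adjusted p = 0.684 in limma, exact permutation p = 0.0929), and 7 of 8 HEP readings lay above the Sham mean. Without Sham array 5, the lowest reading, the differences were 0.10 in HAL and 0.07 in HEP. Both comparisons use the same Sham arrays. HAL minus HEP was 0.03, with an interval of -0.13 to 0.19 (adjusted p = 0.968 in limma). In each comparison with Sham this probe had the smallest p-value of the 4 probes whose sign held, and it did not pass.

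The other probe of Cd99, at 10 or above, could not be set beside it. Its decimals ran from 0.16 to 0.83 in Sham, 0.13 to 0.97 in HAL and 0.11 to 0.93 in HEP, and its difference of HAL minus Sham was between -0.19 and 0.31 over the 3 layouts.

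Icam2 had in its probe 1390310_at readings from 0.32 to 0.72 with a median of 0.51 on 7 Sham arrays. The 5 HAL arrays read lay between 0.22 and 0.91 with a median of 0.50, and the 7 HEP arrays between 0.14 and 0.88 with a median of 0.59. The groups shared their middle and differed in width, with Sham the narrowest. The difference of HAL minus Sham was 0.01 with an interval of -0.25 to 0.26 (adjusted p = 0.993 in limma). HEP minus Sham was 0.06 with an interval of -0.18 to 0.29 (adjusted p = 0.937 in limma). HAL minus HEP was -0.05 with an interval of -0.31 to 0.21 (adjusted p = 0.965 in limma).

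The probe 1389235_at of Icam2, at 10 or above, had a Sham group that held together and 2 groups that did not. Its 6 Sham decimals lay between 0.26 and 0.54, with a median of 0.33 and a resultant length of 0.86. The 6 HAL decimals ran from 0.25 to 0.88 and the 7 HEP decimals from 0.14 to 0.96, with resultant lengths of 0.45 and 0.43. The narrow Sham group was seen in both Icam2 probes (0.66 in 1390310_at, against 0.24 in HAL and 0.37 in HEP). That is a description of spread on 6 to 7 Sham arrays and was not tested. HAL minus HEP was 0.27 in this probe (unadjusted p = 0.0439 and adjusted p = 0.728 in limma, exact permutation p = 0.111), but -0.25 with the circle opened at the largest gap, so it has no direction.

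Pecam1 and Alcam gave levels but no readable difference. Pecam1 decimals ran from 0.15 to 0.73 on the 4 Sham arrays read, from 0.19 to 1.00 on 6 HAL arrays and from 0.11 to 0.97 on 8 HEP arrays. The difference of HAL minus HEP was between -0.10 and 0.11 over the 3 layouts. Alcam decimals ran from 0.35 to 0.98 on 7 Sham, 0.12 to 0.78 on 6 HAL and 0.13 to 0.94 on 5 HEP arrays. Its difference of HAL minus Sham was -0.18 in the layout used throughout (adjusted p = 0.622 in limma) and reached 0.01 in another.

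**Figure D3:**
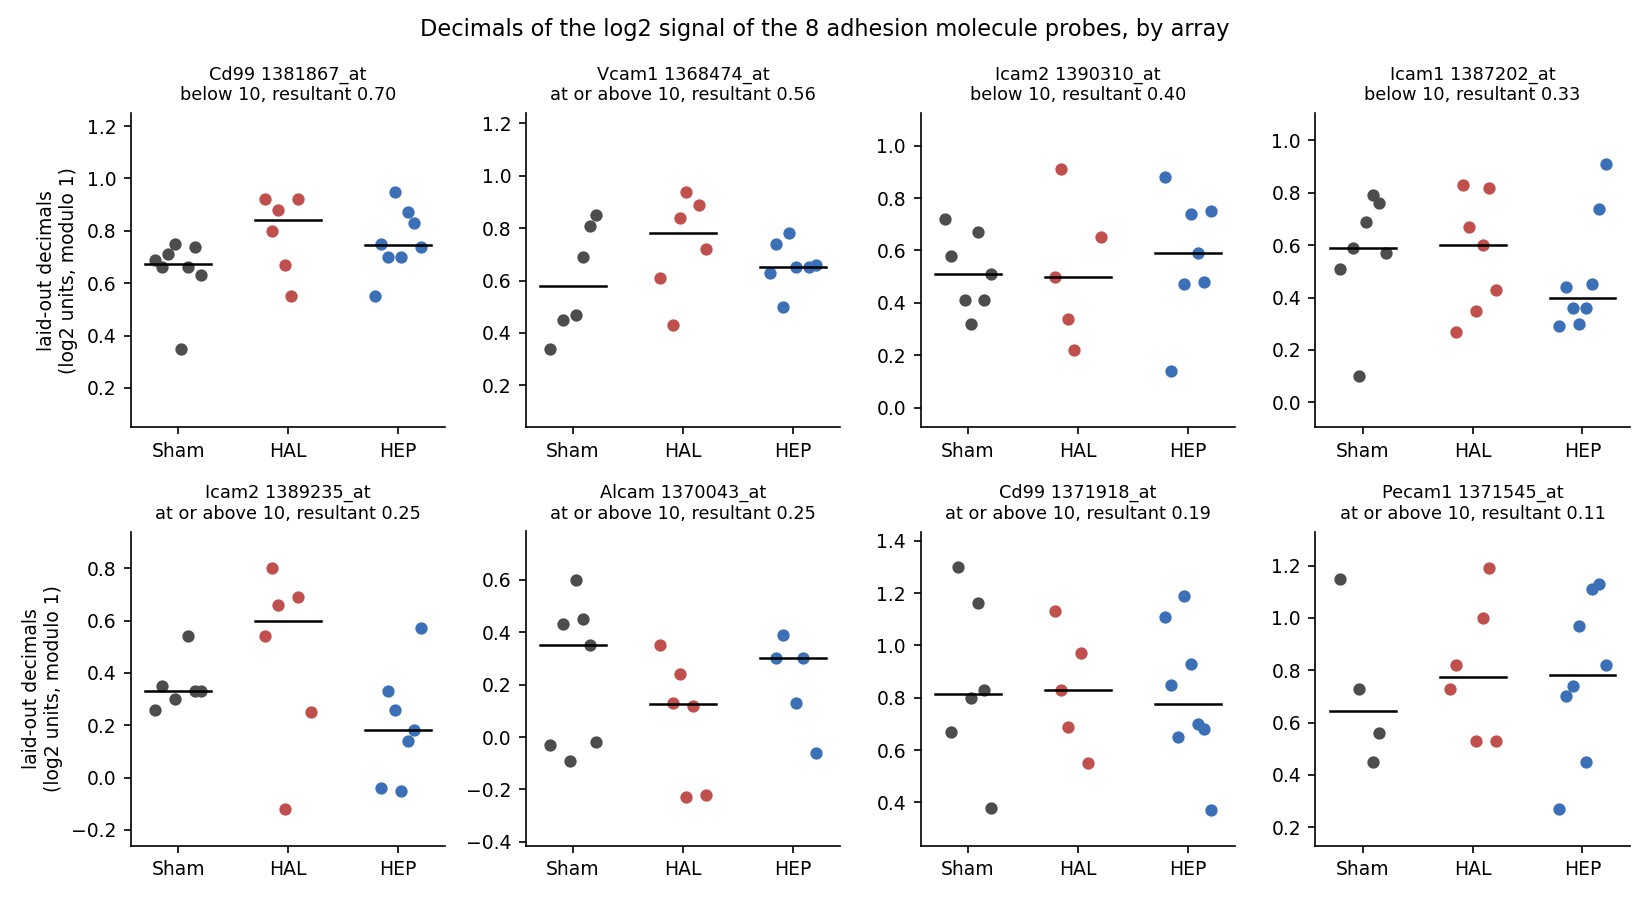
Laid-out decimals (log2 units, modulo 1) of the 8 member probes on each array read, by group, with the median of each group as a line. In the upper row, where signs held in the 3 layouts, the groups overlap in every probe, with Vcam1 medians of 0.58, 0.78 and 0.65 in Sham, HAL and HEP, and in the lower row the points of most groups span much of the circle.

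**Figure D4:**
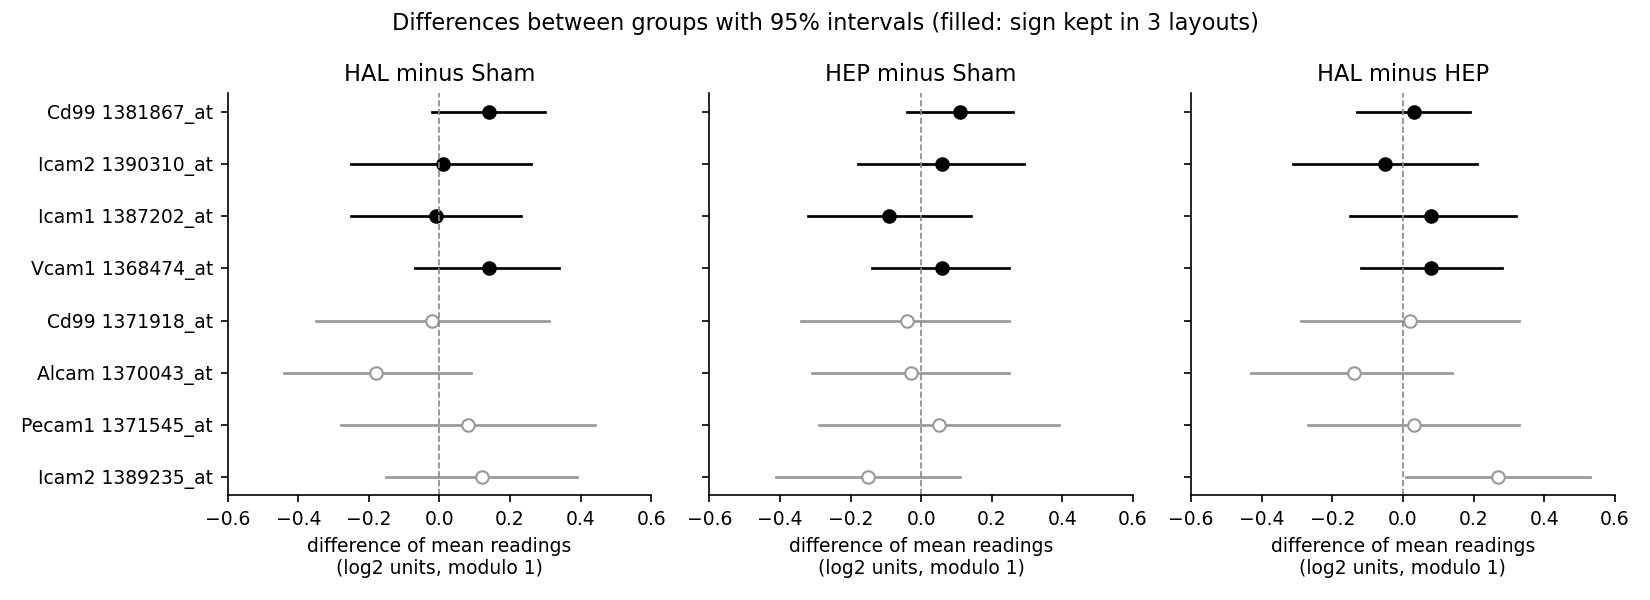
Differences of mean readings (log2 units, modulo 1) with 95% intervals from limma for HAL minus Sham, HEP minus Sham and HAL minus HEP. Filled points are probes whose sign held in the 3 layouts and open points those whose sign did not. All intervals of the filled points span 0, from -0.02 to 0.30 for Cd99 1381867_at in HAL minus Sham, for example.

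The molecules that act before, beside and behind the members were examined as lists. Some listed genes could not be tested. Those tested were 5 of 9 selectins and sialomucins, 9 of 10 junctional genes, 10 of 11 integrins and ligand receptors, and 14 of 17 cytokine receptors and NF-κB components. Among selectins and sialomucins, which slow leukocytes, 0 of the 7 probes tested were called in either model in limma. Madcam1, a mucosal addressin, had the smallest p and read 0.28 ± 0.10 in Sham (SD, n = 6) and 0.48 ± 0.17 in HEP (SD, n = 7), a difference short of the threshold (adjusted p = 0.592 in limma), while HAL read 0.48 ± 0.28 (SD, n = 7; adjusted p = 0.483 in limma). Podxl and Emcn, sialomucins of endothelium, each had a probe in the class at 10 or above.

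Among junctional adhesion molecules 1 of 18 probes was called in HAL minus Sham, higher, and 0 in HEP minus Sham in limma. It was a probe of Jam2 near 10, where the level is inferred from the number of digits. Cells of 8 digits are read there as 10 plus decimals. A signal below 10 that lost a zero would leave 8 digits too and be placed too high. No setting read such cells of Jam2 otherwise. The same limit holds for the levels of Ackr1, Tnfrsf1a and Hyal2 below. Jam2 ran from 9.66 to 10.21 on 8 Sham arrays, from 10.25 to 10.74 on 7 HAL arrays and from 9.85 to 10.75 on 7 HEP arrays. In these readings HAL and Sham did not overlap, while HEP did overlap with Sham. The difference from Sham in these readings was 0.51 in HAL (SE 0.11, adjusted p = 0.0433 in limma). That in HEP was 0.42 (SE 0.11, adjusted p = 0.131 in limma). The call in HAL was lost when any 1 of 12 of the 16 arrays was left out, with adjusted p in limma from 0.0391 to 0.0852 over the 16. It was kept without HAL array 3 or 7 or Sham array 4 or 7. The call was also lost in the fit with decimals laid out around the Sham mean (adjusted p = 0.0802 in limma). Readings near 10 are not laid out, and the Jam2 difference stayed at 0.51 there. Its adjusted p moved only through the other probes of the fit. HEP minus Sham passed without HEP array 8, with a difference of 0.50 (adjusted p = 0.0188 in limma). Whether HAL and HEP differ in Jam2 is a separate test, which gave no call. Among the probes of the same class 2.85% were called in HAL minus Sham.

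Among leukocyte integrins and other ligand receptors 0 of 16 probes were called in limma. Itga6, a laminin receptor subunit that endothelium carries as well, read 0.50 ± 0.14 in Sham (SD, n = 6), 0.78 ± 0.13 in HAL (SD, n = 6) and 0.81 ± 0.11 in HEP (SD, n = 6). Its differences from Sham were 0.28 (adjusted p = 0.131 in limma) and 0.31 (adjusted p = 0.121 in limma), and neither passed. The value in HAL depended on cells 1 digit short: with these read at the nearer zero it was 0.31 and passed (adjusted p = 0.0453 in limma), and with a leading zero it was 0.18 (adjusted p = 0.563 in limma). Itgam, an integrin of myeloid cells, lay below 10. Of 15 chemokine probes 0 were called in limma. Ackr1, the chemokine-binding receptor of venules, read 10.02 ± 0.34 in Sham (SD, n = 6) and 10.46 ± 0.24 in HAL (SD, n = 6), and the difference missed the threshold (adjusted p = 0.264 in limma). HEP read 10.28 ± 0.34 (SD, n = 6; adjusted p = 0.687 in limma).

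The cytokine receptors and NF-κB components, from the pathway that acts on Vcam1 and Icam1, had 0 of 21 probes called in either model in limma. Tnfrsf1a, the main receptor for TNF, was read near 10, from 9.62 to 10.32 on 8 Sham arrays, from 9.96 to 10.87 on 8 HAL arrays and from 10.14 to 10.66 on 7 HEP arrays. Sham overlapped with both. Its differences were 0.40 in HAL (adjusted p = 0.139 in limma) and 0.47 in HEP (adjusted p = 0.121 in limma), and both missed the threshold. Cytoskeletal anchors had 0 of 24 and sheddases with glycocalyx genes 0 of 18 probes called in either model in limma. In the latter Hyal2, a hyaluronidase, came closest in HAL, with 9.91 ± 0.45 in Sham (SD, n = 5) and 10.56 ± 0.25 in HAL (SD, n = 8; adjusted p = 0.0726 in limma). In the former Actn1, an actin cross-linker that binds the tail of Icam1, read 0.26 ± 0.07 in Sham (SD, n = 5), 0.57 ± 0.11 in HAL (SD, n = 7; adjusted p = 0.127 in limma) and 0.62 ± 0.19 in HEP (SD, n = 7; adjusted p = 0.1 in limma). Both differences from Sham stayed positive in the 3 layouts, at 0.31 in HAL and at 0.22 to 0.36 in HEP. The sign did not hold for every comparison of this probe, so by the rule used for the members no direction is given. Actn1 in HEP minus Sham passed with array weights (adjusted p = 0.0361 in limma) and without HEP array 8 (adjusted p = 0.00705 in limma), but with short cells at the nearer zero its difference went from 0.36 to 0.20 and that of HAL from 0.31 to 0.16. Timp3, an inhibitor of sheddases, came closest in HEP (adjusted p = 0.0531 in limma) and likewise has no direction, since its difference of 0.46 was -0.21 with the circle opened at the largest gap. It too passed with array weights (adjusted p = 0.0361 in limma) and without HEP array 8 (adjusted p = 0.015 in limma).

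Between HAL and HEP 0 probes of these lists were called in limma. Cd47, which signals through Sirpa, was read from -0.34 to 0.13 on 6 HAL arrays and from 0.12 to 0.46 on 5 HEP arrays, a difference of -0.35 (adjusted p = 0.419 in limma). The differences of smallest p in the other lists were 0.19 in Itgam, -0.22 in Ccl5, -0.16 in Rela and -0.23 in Icmt, with adjusted p from 0.61 to 0.802 in limma. Those in Podxl and in a second probe of Timp3 changed sign with the layout. At an unadjusted p under 0.05 in limma, where all probes had 12.2% in HAL minus Sham and 9.58% in HEP minus Sham, the junctional list had 5 of 18 probes in each and the selectins 0 of 7 in each. Integrins had 2 of 16 in each, chemokines 2 and 0 of 15, cytokine receptors and NF-κB 4 and 3 of 21, anchors 3 and 5 of 24, and sheddases 4 of 18 in each. The list medians lay between -0.05 and 0.09 in HAL minus Sham, beside 0.01 over all probes.

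The genes most like each member were sought by Pearson's r of the readings, as a description only, since the highest of so many correlations over few arrays is large by construction. For Cd99 1381867_at these were Tk1 (r = 0.85 over 18 arrays) and Kcnk2 (0.84 over 21), out of 13081 probes. For Icam1 they were Fkbp9 (0.78 over 18 arrays) and Slc18a2 (0.77 over 18), out of 13071. For Vcam1 they were Ebf2 (0.72 over 18 arrays) and Tekt5 (0.72 over 19), and for Icam2 1390310_at Esyt3 (0.79 over 18) and Npff (0.76 over 18), out of 3393 and 3465. For the probes without a readable direction they were Sppl2a and Gja5 (Pecam1), Ranbp2 and Sfswap (Alcam), Nosip and Klhl20 (Icam2 1389235_at) and Fastkd5 and Ddx28 (Cd99 1371918_at), with r from 0.64 to 0.76. None of these is a member or belongs to a list above.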

How the data were processed

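Per the submitters' processing notes the log2 signals were made by the authors with RMA (version not given in the sources used here). A labelling kit for whole-transcript arrays was used per the labels' protocols, yet the annotation is that of a 3' expression array, a mismatch that stays unexplained. The deposited table holds whole numbers of at most 9 digits in 746376 cells, of which 0 end in 0, and they were read as decimals of log2 signals. Whether the integer parts were lost in the deposit is unknown.

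Probes with 0 cells of 9 digits were taken as 10 or above and those with 15 or more as below 10. Those with 1 to 14 were taken as near 10 and read as 9 or 10 plus decimals. There a signal below 10 that lost a zero is read as 10 or above. For decimals 18% of cells were short and left out. At least 4 readings a group were needed. Group means were fitted to the readings of 24 arrays with limma 3.58.1 (R 4.3.3), with Benjamini-Hochberg adjustment over 30194 probes, and tested on simulated data. Exact permutation tests used scipy 1.17.1. Depth does not apply to arrays, whose number limits the precision. Array medians deviated by -0.047 to 0.024 from probe means, 0 pairs of columns were identical, and 82.1% to 83.5% of cells were read per array.

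The members, lists and tests were chosen with earlier results of these data known. All member probes are named. Of each other list the text names the probes called, up to 3 a comparison, or else the probe of smallest p, and for each member probe the 2 most alike. Icam2 and Pecam1 were not searched for motifs.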

Additional observations from a re-analysis of the deposited data

Results flagged for a closer look

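Of 24 groups of readings (8 probes in 3 groups), 3 held a value whose gap to its neighbour was large for the range of the group by Dixon's criterion, and chance alone gives about 1 in 20. All 3 were Sham arrays. In Icam1 Sham array 4 read 0.10, against 0.51 for the next lowest of 7 arrays. In Cd99 1381867_at Sham array 5 read 0.35, against 0.63 for the next of 8. Without it the differences of this probe were 0.10 in HAL minus Sham and 0.07 in HEP minus Sham. In Icam2 1389235_at Sham array 6 read 0.54, against 0.35 for the next highest of 6. They are 3 different arrays. On a circle a low reading may also be a high one, so the side on which Sham array 4 stands in Icam1 is not known.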

How the results depend on the processing

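No member probe passed in any setting in which it was tested: all 8 were tested with each of the 24 arrays left out and in 10 of the 12 other settings, 4 with at least 6 readings a group and 1 at a resultant length of at least 0.6. The others were filtered out there. The smallest adjusted p was 0.289 in limma (Icam2 1389235_at, HAL minus Sham, circle opened at the largest gap). Signs of small differences turned: Icam1 in HAL minus Sham was 0.03 with array weights and 0.02 with short cells at the nearer zero. Icam2 1390310_at in HAL minus Sham was -0.03 with array weights, -0.002 with centred arrays and -0.11 with leading zeros. It was -0.02 in HEP minus Sham and 0.04 in HAL minus HEP at the nearer zero. Vcam1 in HEP minus Sham was -0.04 at the nearer zero and -0.06 with leading zeros. With single arrays left out Icam1 ran from -0.09 to 0.04 and Icam2 1390310_at from -0.09 to 0.08 in HAL minus Sham. In HAL minus HEP Icam2 1390310_at ran from -0.15 to 0.02 and Cd99 1381867_at from -0.0002 to 0.08. Over all probes HAL minus Sham gave 47 calls around the Sham circular mean, 80 at a resultant length of at least 0.6, 105 with the replicate block and 89 to 157 with single arrays left out. HEP minus Sham gave 159 with array weights, 31 around the Sham mean, 42 at that resultant length and 16 to 281 with single arrays left out (281 without HEP array 8, 16 without HEP array 6). Counts moved by over 1.5 times without HAL arrays 2, 4 or 6 or Sham arrays 1, 2, 4 or 6 in the former, and without HEP arrays 2, 4, 5, 6, 7 or 8 or Sham array 1 in the latter. HAL minus HEP gave 1 with the largest gap, 2 with the replicate block and 0 to 2 with single arrays left out (2 without HAL array 7). The cause of these shifts was not tested. Sample numbers shared by the groups did not pair the arrays: deviations of same-numbered arrays correlated between -0.07 and 0.10. The replicate block changed no member's call, and ended the call of Jam2 in HAL minus Sham (difference 0.53, adjusted p = 0.0639 in limma). Changes by whole log2 units cannot be seen in any setting.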
